A study of Mus musculus with 10 samples.

Results

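Signalling through Toll-like receptor 4 (TLR4) was followed through 10 of the 24411 genes listed, chosen by symbol so as to run from the receptor to the transcription factor it acts on. They were the receptor genes Tlr4, Ly96 and Cd14, the adaptor genes Myd88 and Ticam1, the kinase genes Irak1 and Irak4, the ubiquitin ligase gene Traf6, the inhibitor gene Nfkbia and the NF-κB subunit gene Rela. RNA of the lumbar spinal cord, the segment that serves the hind limbs, was sequenced from mice treated with paclitaxel (5 libraries) and from mice treated with vehicle (5 libraries). Paclitaxel, a cancer drug that stabilises microtubules, can cause a painful peripheral neuropathy, and the mice were studied as a model of it. The sources used here give no strain, sex, age, dose or time after treatment. Nothing in the labels ties the 5 libraries of a group to separate animals, and every p below refers to the spread between libraries, which may be technical.

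TLR4 is the innate immune receptor for bacterial lipopolysaccharide. It binds its ligand through the co-receptor MD-2, encoded by Ly96, after CD14 has passed the ligand on. In mouse cells, paclitaxel can bind MD-2 and set off the same signalling, and TLR4 of spinal microglia and of sensory neurons has been studied for its part in pain after this drug. Downstream, the adaptor MyD88 assembles IRAK4 and IRAK1 and engages TRAF6, which leads to the destruction of the inhibitor IκBα (Nfkbia) and sets RelA free. The adaptor TRIF (Ticam1) serves a separate branch that leads to interferon genes. What was measured is mRNA in whole tissue, so neither binding of the drug nor activity of the pathway was read out, and fewer cells of a type cannot be told apart from less RNA per cell.

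Library totals lay between 3676259 and 5432072 in the paclitaxel libraries and between 4585899 and 7791594 in the vehicle libraries. Levels are given in CPM, the count scaled to the depth of the library, and 3 counts, the upper limit that a count of 0 allows, corresponded to 0.549 to 0.817 CPM in the paclitaxel libraries and 0.384 to 0.658 CPM in the vehicle libraries. Lumbar Hox genes summed to 254 to 277 CPM in the paclitaxel libraries and 251 to 292 CPM in the vehicle libraries. Of 6 genes used as markers of dorsal root ganglion neurons, Mrgprd and Mrgprx1 had 0 counts, Scn10a had 0 counts with paclitaxel and 1 with vehicle, Trpv1 had 5 with paclitaxel and 2 with vehicle, and Avil had 3 with paclitaxel and 7 with vehicle. The sixth, Ret, which motor neurons express too, lay between 142 and 196 CPM in the paclitaxel libraries and between 160.2 and 194 CPM in the vehicle libraries. In paclitaxel replicate 3, 9 glucocorticoid response genes summed to 1218 CPM, against 333 to 534 CPM in the other paclitaxel libraries and 346 to 713 CPM in the vehicle libraries. In vehicle replicate 4, 8 genes listed for meninges and fibroblasts summed to 157 CPM, against 109 to 116 CPM in the other vehicle libraries. Within these sums Pdgfra lay between 52.0 and 63.0 CPM in the vehicle libraries, and Igf2 reached 27.7 CPM in vehicle replicate 4.

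None of the 10 genes differed between the groups at an adjusted p of 0.05. The components inside the cell, from the adaptors to NF-κB, had fold changes from 0.869 (Myd88) to 1.17 (Irak4). Their 95% intervals were narrow for Irak1 (0.973 to 1.19) but wide for Irak4 (0.804 to 1.69) and Nfkbia (0.76 to 1.75). The mRNAs of the receptor complex were scarce, at 0 to 13 counts in a library, and Irak4 had only 9 to 21. The receptor genes had fold changes of 0.54 (Tlr4), 2.12 (Ly96) and 0.99 (Cd14). Adjusted across all genes, the differences inside the cell and at the receptor could not be told from the spread between libraries. Taken alone, exact permutation tests of the 10 genes gave p of 0.0159 (Tlr4), 0.0397 (Irak1) and 0.0476 (Rela), and above 0.05 for the others. Of the 10, 7 passed the filter on low counts and entered the test across 13287 genes (edgeR quasi-likelihood test with Benjamini-Hochberg adjustment). Of these 7, 0 passed, where over all genes 0% passed (0 of 13287). At an unadjusted p under 0.05 there were 0 of the 7, against 6.06% of all genes (805 genes; 2.94% higher and 3.12% lower with paclitaxel). DESeq2 and limma-voom called 0 of the 7 as well, and they called 1 and 0 genes of the whole table. Of the 7 tested, 6 were higher and 1 was lower in value with paclitaxel (over all genes, 6522 and 6765), and their median log2 fold change was 0.11, against -0.003 over all genes.

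**Figure D1:**
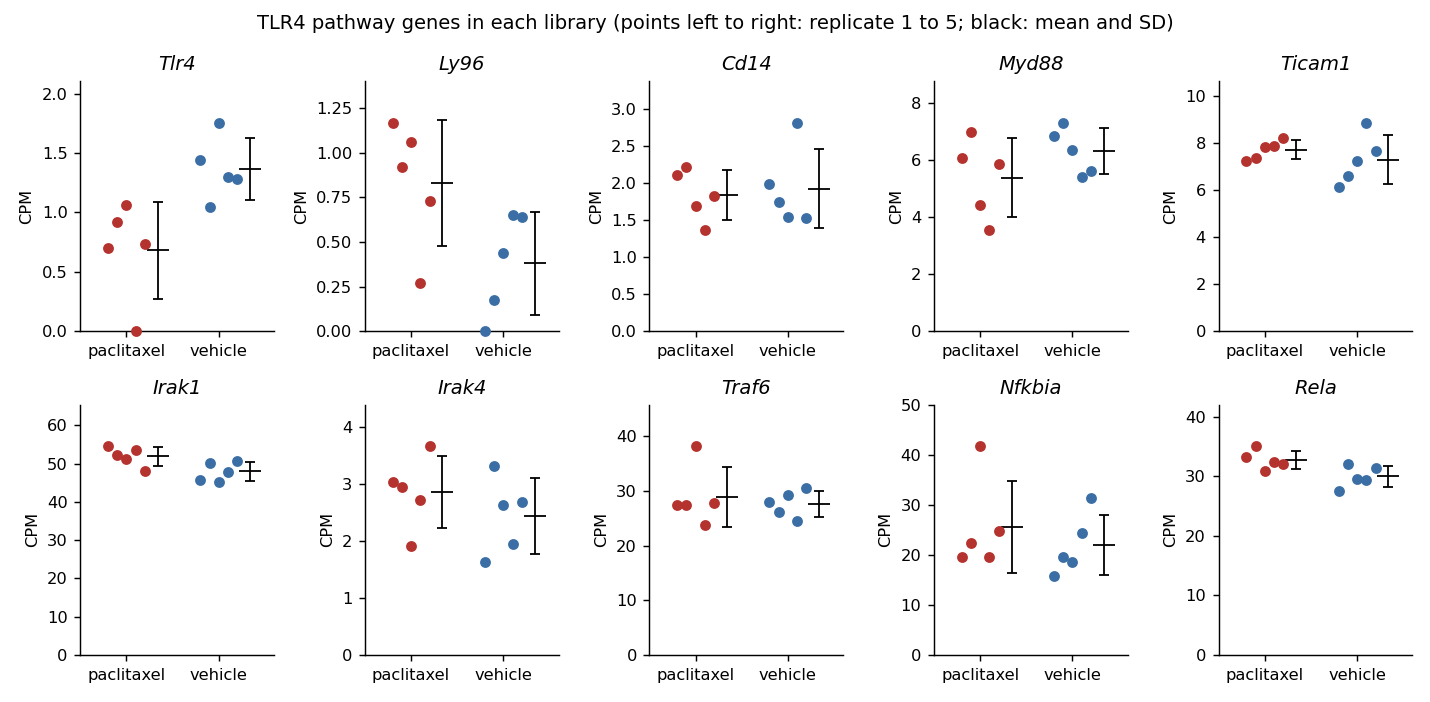
CPM of the 10 TLR4 pathway genes in each paclitaxel library (red, left) and each vehicle library (blue, right), with the mean and SD of 5 libraries in black and all axes starting at 0. The groups overlap for every gene (they do not overlap in 0.929% of the 18508 genes fitted without the filter), Tlr4 by the narrow margin between 1.06 CPM in a paclitaxel library and 1.05 CPM in a vehicle library.

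The pathway was unevenly expressed. To compare genes, levels were set per kilobase of the longest annotated transcript, which need not be the one expressed. On this scale Nfkbia led with a mean of 15.1 CPM per kilobase over all 10 libraries, followed by Irak1 with 13.02 and Rela with 11.6. The ranges of these 3 genes over the libraries overlapped. Traf6 followed with 4.58 CPM per kilobase and overlapped with none of the genes above or below it. Next came Myd88 with 2.99 and Ticam1 with 2.51 CPM per kilobase, whose ranges overlapped. Cd14 with 1.147, Ly96 with 0.958 and Irak4 with 0.935 CPM per kilobase formed a lower group with overlapping ranges, although the lowest library of Myd88, at 1.81 CPM per kilobase, was below the highest of Ly96. Tlr4 itself was the scarcest in mean level, at 0.251 CPM per kilobase, with a highest library of 0.431, below the lowest library of Irak4 at 0.573. That of Ly96 ran from 0 to 1.85 CPM per kilobase and so overlapped with Tlr4.

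Tlr4, the signalling receptor (chromosome 4, 66827551 to 66846581, GRCm38), was near the limit of detection. It had 3, 5, 5, 0 and 4 counts in paclitaxel replicates 1 to 5, against 8, 6, 8, 6 and 10 counts in vehicle replicates 1 to 5. In CPM these were 0.701, 0.922, 1.06, 0 and 0.732 with paclitaxel, against 1.44, 1.05, 1.76, 1.30 and 1.28 with vehicle. All 5 paclitaxel libraries lay below the vehicle mean, and the groups overlapped only through paclitaxel replicate 3 and vehicle replicate 2. The smallest paclitaxel library, replicate 4, was the one with 0 counts, which allows a level of up to 0.817 CPM. Tlr4 averaged 0.683 ± 0.409 CPM over the paclitaxel libraries and 1.36 ± 0.261 CPM over the vehicle libraries (± SD, n = 5 each). Summed over each group, 17 counts gave 0.722 CPM with paclitaxel (95% exact Poisson interval 0.420 to 1.16), against 38 counts and 1.34 CPM with vehicle (0.951 to 1.84), intervals that cover counting error only. Too few counts kept Tlr4 out of the test, so its fold change was taken from the edgeR fit without the filter, over 18508 genes. There the log2 fold change was -0.89 with a standard error of 0.45 (95% interval -1.79 to 0.01; by edgeR, unadjusted p = 0.0525, adjusted p = 0.82), where 5.52% of all genes had an unadjusted p under 0.05 and 2.74% had it with lower values in paclitaxel. Taken alone, the difference of mean CPM had a p of 0.0159 (exact permutation test, two-sided, the smallest possible being 0.00794), the lowest of the 10 such tests made, 1 for each gene. With a filter of 1 CPM in 5 libraries Tlr4 entered the test, at a log2 fold change of -0.88 (by edgeR, unadjusted p = 0.048, adjusted p = 0.82), and the members at an unadjusted p under 0.05 numbered 1 instead of 0. It met that filter mainly through the vehicle libraries, where it was higher. Without paclitaxel replicate 4 the log2 fold change was -0.65.

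Ly96, the gene of the co-receptor MD-2 to which paclitaxel can bind in the mouse (chromosome 1, 16688456 to 16709605), also rested on few counts, and its difference had the opposite sign. It had 5, 5, 5, 1 and 4 counts in paclitaxel replicates 1 to 5, against 0, 1, 2, 3 and 5 counts in vehicle replicates 1 to 5. Of the paclitaxel libraries 4 lay above the vehicle mean, and replicate 4, the smallest, lay below it. Ly96 averaged 0.831 ± 0.352 CPM over the paclitaxel libraries and 0.380 ± 0.287 CPM over the vehicle libraries (± SD, n = 5 each). Summed over each group, 20 counts gave 0.849 CPM with paclitaxel (95% exact Poisson interval 0.519 to 1.31), against 11 counts and 0.389 CPM with vehicle (0.194 to 0.696). In the fit without the filter the log2 fold change was 1.08 with a standard error of 0.57 (95% interval -0.06 to 2.23; by edgeR, unadjusted p = 0.0635, adjusted p = 0.82), where 2.78% of all genes had an unadjusted p under 0.05 with higher values in paclitaxel. Its exact permutation p was 0.0635 (two-sided). Without vehicle replicate 1, the library with 0 counts, the log2 fold change was 0.78, and it ran up to 1.44 without vehicle replicate 5.

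Cd14, the gene of the protein that hands ligand to the receptor complex (chromosome 18, 36725064 to 36726815), was level between the groups. It had 2.10, 2.21, 1.69, 1.36 and 1.83 CPM in paclitaxel replicates 1 to 5, against 1.98, 1.74, 1.54, 2.81 and 1.53 CPM in vehicle replicates 1 to 5. The highest value belonged to vehicle replicate 4, the library with the high sum of genes listed for meninges and fibroblasts, whose part in it was not tested. The log2 fold change in the fit without the filter was -0.02 with a standard error of 0.32 (95% interval -0.66 to 0.62; by edgeR, adjusted p = 0.99), an interval that runs from 0.631-fold to 1.54-fold. Without vehicle replicate 4 it was 0.13.

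**Figure D2:**
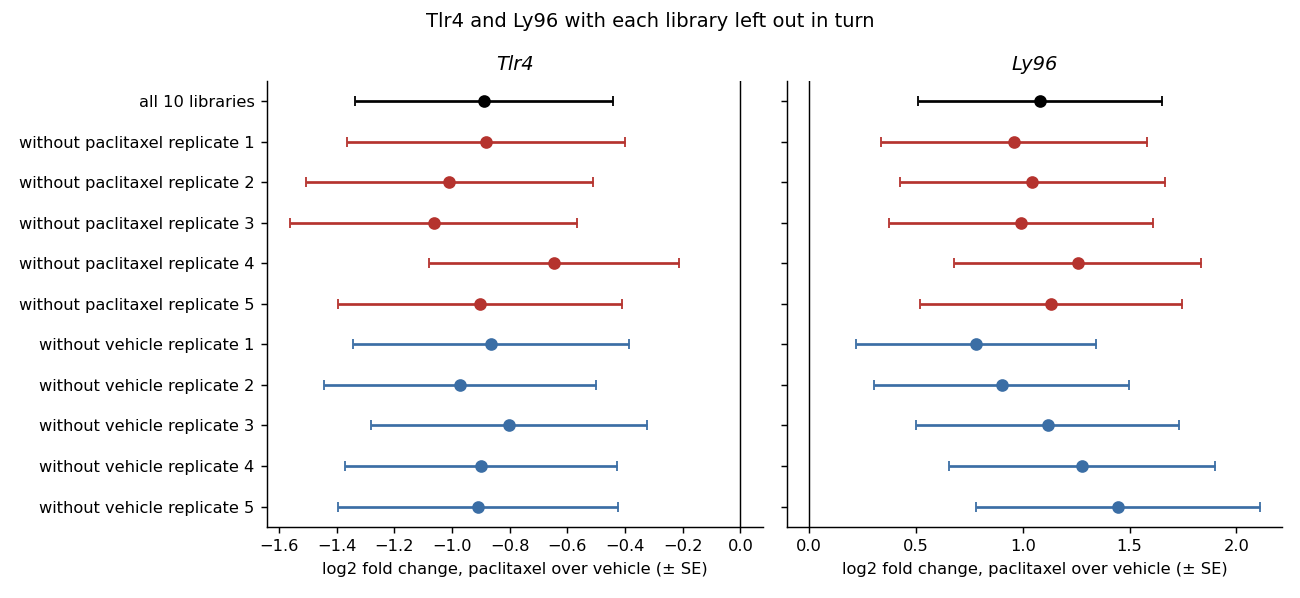
Log2 fold change of Tlr4 and Ly96, paclitaxel over vehicle, with bars of 1 standard error, for all 10 libraries (black) and with each paclitaxel (red) or vehicle (blue) library left out, from the edgeR fit without the filter on low counts. Tlr4 runs from -1.06 to -0.65 and Ly96 from 0.78 to 1.44, each on its own axis.

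In the cord, receptor genes of this pathway are known from microglia and other macrophages. Microglial markers, 18 genes that all entered the test, summed to between 438 and 620 CPM in the paclitaxel libraries and between 444 and 558 CPM in the vehicle libraries. Of these 18 genes 12 were higher and 6 lower in value with paclitaxel, 0 passed, and the median log2 fold change was 0.08. The 7 border macrophage markers summed to 2.99 to 5.30 CPM with paclitaxel and 2.20 to 5.20 CPM with vehicle. The 8 markers of blood monocytes and neutrophils summed to 0.272 to 3.81 CPM with paclitaxel and 0.174 to 9.02 CPM with vehicle, the highest being vehicle replicate 1. Each of these sums overlapped between the groups.

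Of the adaptors, Myd88 (chromosome 9, 119335934 to 119340018), through which all Toll-like receptors but TLR3 signal, was the only tested member with a lower value in paclitaxel. It had 6.08, 7.01, 4.45, 3.54 and 5.86 CPM in paclitaxel replicates 1 to 5, against 6.85, 7.32, 6.36, 5.41 and 5.63 CPM in vehicle replicates 1 to 5. Paclitaxel replicates 3 and 4 lay below every vehicle library and the others lay among them. The log2 fold change was -0.20 with a standard error of 0.19 (95% interval -0.59 to 0.19; by edgeR, adjusted p = 0.855), and with 1 library left out it ran from -0.32 (without paclitaxel replicate 2) to -0.099 (without paclitaxel replicate 4). Ticam1 (chromosome 17, 56269462 to 56276767), the gene of TRIF, had 7.25, 7.38, 7.84, 7.89 and 8.24 CPM in paclitaxel replicates 1 to 5, against 6.13, 6.62, 7.24, 8.88 and 7.67 CPM in vehicle replicates 1 to 5. The paclitaxel libraries lay within the range of the vehicle libraries, and the log2 fold change was 0.08 with a standard error of 0.15 (95% interval -0.23 to 0.40; by edgeR, adjusted p = 0.95). Without vehicle replicate 1 it was 0.032, and without vehicle replicate 4 it was 0.16.

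The kinases differed widely in level but little between the groups. Irak1 (chromosome X, 74013914 to 74023921), whose product is phosphorylated by IRAK4 and then leaves the receptor to join TRAF6, was a steadily expressed member, with a coefficient of variation of 4.88% over the paclitaxel libraries and 5.21% over the vehicle libraries. It had 54.5, 52.2, 51.3, 53.6 and 47.96 CPM in paclitaxel replicates 1 to 5, against 45.8, 50.2, 45.2, 47.8 and 50.8 CPM in vehicle replicates 1 to 5. Of the paclitaxel libraries 4 lay above every vehicle library. The mean was 51.9 ± 2.53 CPM over the paclitaxel libraries and 47.97 ± 2.50 CPM over the vehicle libraries (± SD, n = 5 each), and the fitted ratio of 1.08-fold carried a 95% interval of 0.973 to 1.19. Across all genes this did not pass (edgeR log2 fold change 0.11, SE 0.07, unadjusted p = 0.144, adjusted p = 0.817), with an exact permutation p of 0.0397 (two-sided) for this gene alone. Irak4 (chromosome 15, 94543613 to 94568317), the kinase that starts the cascade, had 3.04, 2.95, 1.91, 2.72 and 3.66 CPM in paclitaxel replicates 1 to 5, against 1.62, 3.31, 2.63, 1.95 and 2.69 CPM in vehicle replicates 1 to 5. These rest on 9 to 21 counts in a library and overlapped throughout, and the log2 fold change was 0.22 with a standard error of 0.26 (95% interval -0.31 to 0.76; by edgeR, adjusted p = 0.899). It was 0.10 without paclitaxel replicate 5, 0.11 without vehicle replicate 1, 0.34 without paclitaxel replicate 3 and 0.36 without vehicle replicate 2.

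Traf6 (chromosome 2, 101678420 to 101701668), the ubiquitin ligase on which the cascade converges before NF-κB, had 27.4, 27.5, 38.1, 23.7 and 27.8 CPM in paclitaxel replicates 1 to 5, against 28.0, 26.1, 29.2, 24.5 and 30.4 CPM in vehicle replicates 1 to 5. Paclitaxel replicate 3 stood above the other 9 libraries, which lay between 23.7 and 30.4 CPM. With it the log2 fold change was 0.06 with a standard error of 0.11 (95% interval -0.16 to 0.29; by edgeR, adjusted p = 0.944), and without it -0.05.

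Nfkbia (chromosome 12, 55489409 to 55492647) encodes IκBα, which holds NF-κB in the cytoplasm, and NF-κB in turn switches the gene on, so that its mRNA is used as a readout of the pathway. It is also known to be induced by glucocorticoids. The 250 bases before its annotated start (RefSeq, GRCm38.p6, chr12:55492648-55492897, minus strand) are shown because this gene is where the pathway feeds back on its own inhibitor. Capitals mark each match to a form of the NF-κB motif, GGNNTTTCC, or its reverse complement GGAAANNCC.
Nfkbia: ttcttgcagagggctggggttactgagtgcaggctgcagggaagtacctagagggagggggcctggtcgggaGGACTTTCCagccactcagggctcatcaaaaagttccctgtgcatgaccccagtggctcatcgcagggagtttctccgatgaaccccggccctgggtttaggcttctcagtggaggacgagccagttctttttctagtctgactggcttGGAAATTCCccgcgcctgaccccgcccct
The 2 matches, GGACTTTCC and GGAAATTCC, begin 178 and 29 bases before the start and do not overlap each other. At least 1 match was present in the same window of 5.62% of 27025 genes, and 2 or more in 0.229%. Windows were searched for 7 of the 10 members, and not for Tlr4, Ly96 and Cd14. Among the 7 searched, Nfkbia was the only one with a match. Other forms of the motif were not searched. A match is a stretch of letters and not a shown binding site.

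The level of Nfkbia varied more between libraries than between groups. It was 19.6, 22.3, 41.7, 19.6 and 24.7 CPM in paclitaxel replicates 1 to 5, against 15.9, 19.7, 18.7, 24.5 and 31.3 CPM in vehicle replicates 1 to 5. Paclitaxel replicate 3 was the highest library and vehicle replicate 5 the next. The log2 fold change was 0.21 with a standard error of 0.27 (95% interval -0.40 to 0.81; by edgeR, adjusted p = 0.912), and it was -0.04 without paclitaxel replicate 3. As a sum, the glucocorticoid response genes Fkbp5, Sgk1, Tsc22d3, Zbtb16, Plin4, Cdkn1a, Hif3a, Per1 and Sult1a1 followed the same libraries. Their summed level was highest in paclitaxel replicate 3 (1218 CPM) and then in replicate 5 (534 CPM) among the paclitaxel libraries, the order of Nfkbia there. Among the vehicle libraries it was highest in replicate 5 (713 CPM) and then in replicate 4 (552 CPM), again the order of Nfkbia. Fkbp5 by itself did not keep this order in the paclitaxel libraries. The list was chosen with earlier results of these data known, so its match with Nfkbia is not independent support. Among 13287 genes, those whose log2 CPM, centred on each group, was most like that of Nfkbia over the 10 libraries were the kinase gene Mast3 and the glucocorticoid response genes Plin4 and Hif3a, with Pearson correlations of 0.976, 0.972 and 0.967, and of 0.958, 0.946 and 0.936 without paclitaxel replicate 3. These are a description, since all genes share the same libraries and their depth. By the same measure Tsr1, Il1r1 and BC002163 were most like Tlr4 (0.917, 0.895 and 0.892), which at 0 to 10 counts in a library is too sparse for the likeness to be read. The part of this response in the level of Nfkbia and Traf6 was not tested.

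**Figure D3:**
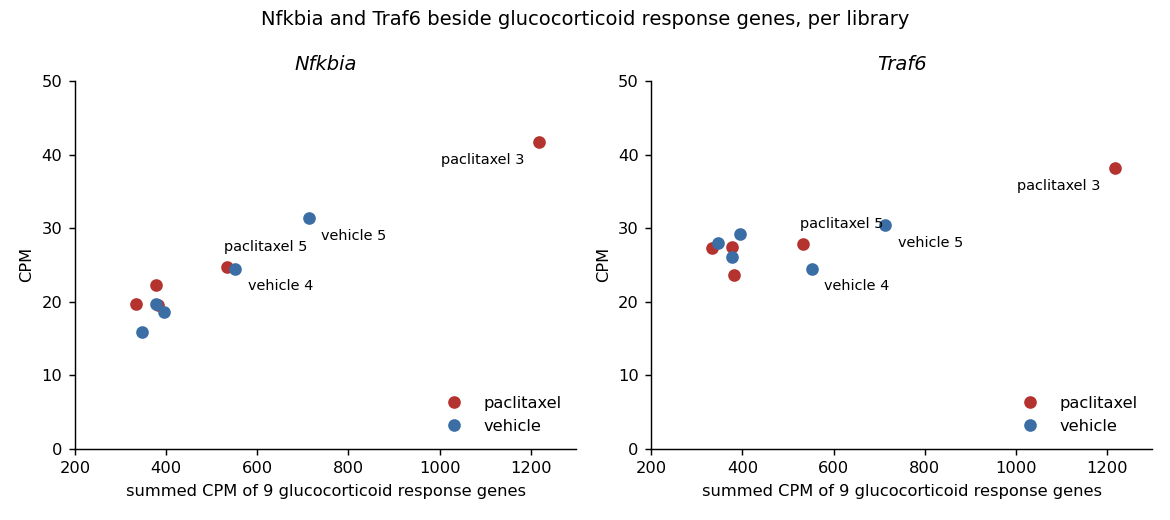
CPM of Nfkbia (left) and Traf6 (right) in each library against the summed CPM of 9 glucocorticoid response genes, with paclitaxel libraries in red and vehicle libraries in blue; the horizontal axis starts at 200. Paclitaxel replicate 3, at 1218 summed CPM, holds the highest value of both genes, 41.7 CPM of Nfkbia and 38.1 CPM of Traf6.

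Rela (chromosome 19, 5637442 to 5648134), the gene of the NF-κB subunit that activates transcription, had 33.2, 35.0, 30.9, 32.4 and 32.0 CPM in paclitaxel replicates 1 to 5, against 27.6, 32.1, 29.6, 29.4 and 31.5 CPM in vehicle replicates 1 to 5. Each of the 5 paclitaxel libraries exceeded the mean of the vehicle libraries, and the groups overlapped between 30.9 and 32.1 CPM. Rela averaged 32.7 ± 1.53 CPM over the paclitaxel libraries and 30.0 ± 1.78 CPM over the vehicle libraries (± SD, n = 5 each), and the fitted ratio of 1.09-fold carried a 95% interval of 0.967 to 1.22. It did not pass across all genes (edgeR log2 fold change 0.12, SE 0.08, unadjusted p = 0.154, adjusted p = 0.819), with an exact permutation p of 0.0476 (two-sided) for this gene alone. Besides Tlr4, Ly96, Irak1 and Rela, the members had exact permutation p from 0.246 (Myd88) to 0.817 (Cd14). The share of all genes at such a p was not worked out. The 95% intervals reach up to 1.19-fold for Irak1, 1.22-fold for Rela, 1.69-fold for Irak4, 1.75-fold for Nfkbia and 4.68-fold for Ly96. They rest on the spread between libraries.

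**Figure D4:**
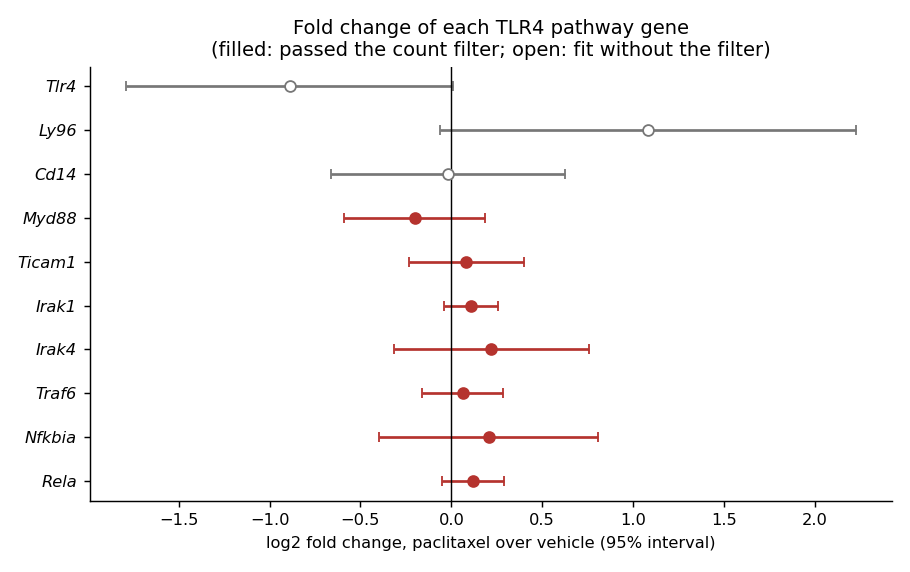
Log2 fold change of each gene, paclitaxel over vehicle, with its 95% interval, for the 7 genes that passed the count filter (filled) and the 3 that did not (open, fit without the filter). Every interval includes 0, and those of Tlr4 (-1.79 to 0.01) and Ly96 (-0.06 to 2.23) are the widest.

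Beyond the 10 members, 81 other genes of the pathway were read out in 5 lists. Of these, 53 entered the test and 0 passed, with 27 higher and 26 lower in value with paclitaxel. At an unadjusted p under 0.05 there were 3 higher and 1 lower, against 6.06% of all genes tested.

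Accessory proteins and adaptors of the receptor complex held 2 of those genes, with 12 of 15 tested and a median log2 fold change of 0.04. Peli1 encodes Pellino-1, a ubiquitin ligase that acts on IRAK1 and, in microglia, promotes Toll-like receptor signalling. It lay between 33.4 and 39.6 CPM in the paclitaxel libraries, all above the vehicle libraries at 28.4 to 32.8 CPM, a separation of groups seen in 1.09% of all tested genes. Its log2 fold change was 0.27 (SE 0.08; edgeR unadjusted p = 0.00375, adjusted p = 0.791). Cd180, which encodes a relative of TLR4 on B cells and macrophages that restrains it, lay between 1.06 and 4.21 CPM with paclitaxel and between 0.767 and 2.63 CPM with vehicle, with a log2 fold change of 0.90 (SE 0.37; edgeR unadjusted p = 0.0212, adjusted p = 0.791), and 0.67 without paclitaxel replicate 1. Cd180 had few counts and met the count filter mainly through paclitaxel libraries, where it was higher. Tollip, an inhibitory adaptor, had a log2 fold change of 0.05, and Sarm1, an adaptor better known for its role in axon degeneration, of -0.13, or -0.072 without paclitaxel replicate 5.

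In the module from the kinase TAK1 to NF-κB, 20 of 20 genes were tested, 11 higher and 9 lower in value, with a median log2 fold change of 0.02. At an unadjusted p under 0.05 there were 0. The lowest p belonged to Map3k7, the gene of TAK1, which averaged 80.2 ± 1.98 CPM over the paclitaxel libraries and 73.1 ± 4.93 CPM over the vehicle libraries (± SD, n = 5 each; log2 fold change 0.13; edgeR adjusted p = 0.801). Its ubiquitin-binding partner gene Tab2 had a log2 fold change of 0.13 as well. The NF-κB target Tnfaip3, which encodes the feedback inhibitor A20, stood at a log2 fold change of 0.46 (SE 0.24), at 0.70 without vehicle replicate 1 and at 0.31 without vehicle replicate 3. Nfkb1 had a log2 fold change of -0.16, or -0.10 without vehicle replicate 1.

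The TRIF branch towards interferon had 7 of 10 genes tested, 1 higher and 6 lower in value, with a median log2 fold change of -0.04. Traf3 (-0.08), the kinase gene Tbk1 (-0.06), Irf5 (-0.12) and Irf3 (-0.04) had the lowest p, each with an edgeR adjusted p of 0.842 or above. A single library could take these values to about 0 or across it, to 0.010 for Tbk1 without vehicle replicate 1, 0.022 for Irf3 without vehicle replicate 3, -0.0063 for Irf5 without paclitaxel replicate 4 and -0.032 for Traf3 without paclitaxel replicate 3. Ifnb1, the gene of interferon β, had 0 counts in all 10 libraries. Of the other untested genes of this branch, Ikbke had 42 counts with paclitaxel and 49 with vehicle, and Irf7 had 29 and 58. Irf7 lay between 0.424 and 1.83 CPM with paclitaxel and between 1.92 and 2.38 CPM with vehicle. Such a separation of groups was seen in 0.929% of the genes fitted without the filter.

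Of the 11 other Toll-like receptor genes 5 entered the test and 0 passed. These 5 were higher in value with paclitaxel, with a median log2 fold change of 0.46. This direction held under both other scalings and with each library left out, which use the same counts again. Tlr5, Tlr7 and Tlr9 had few counts and met the count filter mainly through paclitaxel libraries, where they were higher. Their shared direction may thus be partly set by the filter and is not independent support for a difference. Over all tested genes 6522 were higher and 6765 lower. The 6 untested genes went both ways in mean CPM, Tlr1, Tlr6, Tlr11 and Tlr13 being higher and Tlr8 and Tlr12 lower with paclitaxel. Tlr12 had 12 counts with paclitaxel and 21 counts with vehicle, and Tlr13 had 49 counts with paclitaxel and 34 counts with vehicle. Tlr9, the receptor for unmethylated DNA, averaged 3.07 ± 1.04 CPM over the paclitaxel libraries and 1.93 ± 0.675 CPM over the vehicle libraries (± SD, n = 5 each). This gave a log2 fold change of 0.68 (SE 0.30; by edgeR, unadjusted p = 0.0304, adjusted p = 0.791), and 0.47 without paclitaxel replicate 2. The log2 fold change was 0.46 for Tlr5, the flagellin receptor, 0.48 for Tlr7, which senses single-stranded RNA, and 0.13 for Tlr3, which senses double-stranded RNA. Tlr7 was at 0.24 without vehicle replicate 3. The sum over all 11 genes of the list ran from 39.4 to 44.8 CPM with paclitaxel and from 32.9 to 37.2 CPM with vehicle, without overlap. Most of this sum came from Tlr3, with 25.9 ± 1.86 CPM in the paclitaxel libraries and 23.6 ± 1.21 CPM in the vehicle libraries. Single genes were separated in this way in 1.09% of all tested genes, and no such share was worked out for sums. The list was chosen with earlier results of these data known, and sums of many lists were compared. Whether Tlr4 differs from the other receptors in its response was not tested.

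**Figure D5:**
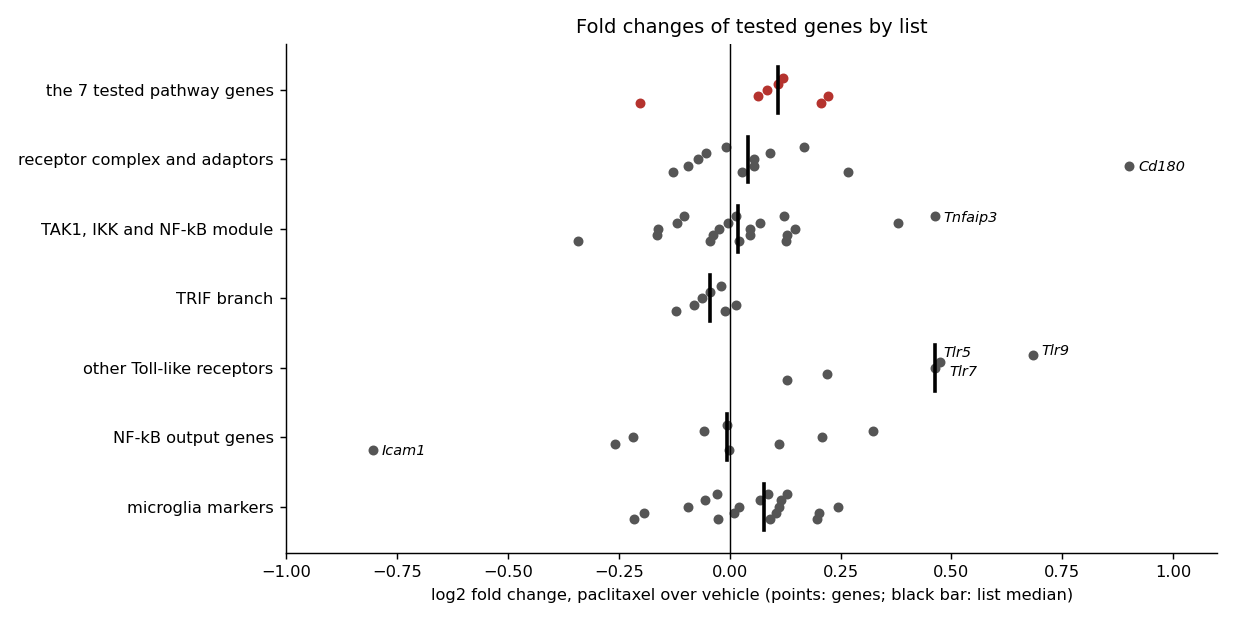
Log2 fold change, paclitaxel over vehicle, of each tested gene in the TLR4 pathway (red), in 5 lists of other pathway genes and in microglial markers (grey), with the list median as a black bar. Medians lie between -0.04 and 0.11 except for the 5 other Toll-like receptor genes at 0.46, and Cd180 and Icam1 lie farthest out.

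The 25 listed genes that NF-κB can switch on ran from undetected to abundant in both groups. Sod2, the gene of a mitochondrial antioxidant enzyme, lay between 176.5 and 205 CPM in the paclitaxel libraries and between 172 and 212 CPM in the vehicle libraries, and Lcn2, the untested gene with the most counts, had 20 counts with paclitaxel and 31 with vehicle. Il1b and Tnf had 0 counts in all 10 libraries, which over 51814921 counts allows a level of up to 0.0579 CPM. Il6 had 0 counts with paclitaxel and 1 count with vehicle, and the chemokine gene Ccl2 had 1 count with paclitaxel and 4 counts with vehicle. Of the 25 genes 9 entered the test, 3 higher and 6 lower in value, with a median log2 fold change of -0.005. The lowest p belonged to Icam1, the gene of an adhesion molecule of endothelium, which averaged 1.61 ± 0.717 CPM over the paclitaxel libraries and 2.84 ± 1.05 CPM over the vehicle libraries (± SD, n = 5 each). It lay between 0.847 and 2.40 CPM with paclitaxel and between 2.20 and 4.69 CPM with vehicle, and the groups overlapped. It met the count filter mainly through vehicle libraries, where it was higher. Its log2 fold change was -0.80 (SE 0.32; edgeR unadjusted p = 0.0197, adjusted p = 0.791), and -0.55 without vehicle replicate 1. The next were Gadd45b (-0.26), the macrophage growth factor gene Csf1 (0.11) and the apoptosis inhibitor gene Birc3 (0.32). They moved closest to 0 without paclitaxel replicate 4 for Gadd45b (-0.17), without paclitaxel replicate 2 for Csf1 (0.049) and without vehicle replicate 5 for Birc3 (0.16).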

How the data were processed

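The authors deposited RSEM expected counts per gene for 10 libraries, not scaled to depth. The submitters' processing notes name genome build mm10 and the tools STAR, RSEM and edgeR 4.2.0. Versions of STAR and RSEM, the annotation, strandedness and read filters are not given here. Reads that fit several genes are shared among them by RSEM's model. Before testing, values were rounded, which altered the 5.04% that held a fraction of a count.

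Counts were filtered with filterByExpr (minimum count 10, minimum total 15) and tested without covariates by the quasi-likelihood test of edgeR 4.0.16 (R 4.3.3) with TMM factors and robust dispersions, two-sided, with Benjamini-Hochberg adjustment over all tested genes and a threshold of 0.05. Tlr4, Ly96 and Cd14 did not pass the filter and were taken from the same fit without it, a choice made after the data were seen. CPM use TMM-scaled library sizes, with a prior count of 2 on the log2 scale. Standard errors were derived from F statistics, and intervals cover 95%. Exact permutation tests ran over all 252 assignments of libraries. Replicate pairs differed beyond sampling noise (ratio of chi-square to its degrees of freedom 1.62 to 6.88), so each library counted as 1 replicate. The procedure was tested on simulated counts.

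The members and gene lists were chosen with earlier results of these data known. All members are described; of each other pathway list, the up to 4 genes of lowest p are named, and Il1b, Tnf, Il6 and Ccl2 whatever their values. Ifnb1, Ikbke, Irf7, Sod2, Lcn2, Tlr12, Tlr13 and the marker genes were named after their values were seen. Transcript lengths are from GENCODE release M21, and gene positions and promoters from RefSeq on GRCm38, the assembly that mm10 names. Alternatives were DESeq2 size factors or library totals, no filter, a filter of 1 CPM in 5 libraries, the tools DESeq2 1.42.0 and limma-voom (limma 3.58.1), the replicate number as a block, and leaving out libraries.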

Additional observations from a re-analysis of the deposited data

Results flagged for a closer look

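In 30 groups of 5 libraries examined, 4 values stood far from the others by Dixon's criterion. Chance meets it in about 1 of 20 independent groups. These groups share the same libraries, and their genes were chosen with earlier results known, so that rate does not apply to them. Traf6 was at 38.1 CPM in paclitaxel replicate 3, against 23.7 to 27.8 CPM in the other paclitaxel libraries. Its gap to the next library was 0.713 of the range, just past the limit of 0.71. Nfkbia was at 41.7 CPM in the same library, against 19.6 to 24.7 CPM in the others. The summed level of glucocorticoid response genes was 1218 CPM there, against 333 to 534 CPM in the others. The summed level of genes of meninges and fibroblasts was 157 CPM in vehicle replicate 4, against 109 to 116 CPM in the other vehicle libraries.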

How the results depend on the processing

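No TLR4 pathway gene passed the threshold under any alternative, and the median log2 fold change of the 7 tested genes ran from 0.08 to 0.13 with each library left out. Over all genes the count of calls was 0, except 1 in DESeq2 and 1 with the replicate number as a block. The numbers were not taken to pair the libraries, since the deviations of same-numbered libraries correlated from -0.10 to 0.14 and only 2 of 5 paclitaxel libraries correlated best with their own number; with the block 0 members were called. Of 176 values of single members under alternatives, 9 changed sign and 0 changed their side of the threshold. Cd14 reached 0.014 in limma-voom and 0.17 without paclitaxel replicate 3 and vehicle replicate 4 together, and ran from -0.11 to 0.13 with each library left out, above 0 without paclitaxel replicate 3 (0.014) or 4 (0.053) or vehicle replicate 4 (0.13). Without that pair of libraries Traf6 was at -0.092 and Nfkbia at -0.011, and with single libraries left out they ran from -0.053 to 0.12 and from -0.039 to 0.39, both lowest without paclitaxel replicate 3. The cause was not tested. At 0 to 10 counts per library, Tlr4 (-1.10 to -0.65 over all alternatives, unadjusted p from 0.0214 to 0.144) and Ly96 (0.78 to 1.44, unadjusted p from 0.0251 to 0.172) are limited by depth.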
